A study of Mus musculus with 15 samples.

Results

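In all, 36 genes of amino acid supply and of the stress programme run by the transcription factor ATF4 were followed. The setting was the withdrawal and return of GDNF and its co-receptor GFRalpha1 in cultured mouse spermatogonial stem cells. The 36 members were taken by gene symbol from a list of ATF4 with its partner factors, the amino acid enzymes and transporters it is known to control, and the kinases and phosphatase subunits of the eIF2 branch of translation control. The array carried 78 probe sets for 35 of them, and no probe set carried the symbol Pycr1. Of the 78, 69 passed a filter that left out the dimmest probe sets, those under a signal of about 30.5. Slc7a11, the cystine/glutamate exchanger, did not pass. Its brighter probe set lay between 2.8 and 41.3 on the 15 arrays, and it was not tested. The remaining 34 members were tested among 13083 genes of the array, with 1 probe set chosen for each gene, the one whose log2 mean was highest. For 21 members more than 1 probe set had passed.

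Spermatogonial stem cells are the germline stem cells of the testis, and in culture they depend on GDNF (glial cell line-derived neurotrophic factor), which signals through RET and the co-receptor GFRalpha1. The cultures were enriched for these cells and had been established from C57BL/6 male mice aged 6 days. There were 5 groups of 3 arrays. Withdrawal cultures were kept without GDNF and GFRalpha1 for 18 h, and in the replacement groups both factors were returned after those 18 h for 2, 4 or 8 h. Maintained cultures had GDNF, GFRalpha1 and bFGF throughout, in a defined medium free of serum. Values are MAS5 signal in arbitrary units, 1 array a sample. No group was handled alike without getting the factors back, so their return cannot be told apart from handling or added time in culture. Nothing in the labels tells whether replicates came from separate cultures, so p-values measure the spread between these arrays, which may be technical.

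ATF4 is made when the initiation factor eIF2 is phosphorylated, by GCN2 (Eif2ak4) when amino acids run short or by PERK (Eif2ak3) when proteins misfold in the endoplasmic reticulum. Phosphorylated eIF2 slows translation in general while the ATF4 message is translated more, so ATF4 protein can change without a change in its transcript. With C/EBP partners, ATF4 binds composite C/EBP-ATF elements and raises genes that import, make and load amino acids. Ppp1r15a (GADD34) then returns eIF2 to its unphosphorylated form. Arrays of this kind measure transcripts only.

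Composite elements are visible in the promoters of several members. RefSeq promoter windows on GRCm38.p6, which run from 250 bases before to 50 after the annotated start of transcription, were found for 29 of the 36 members, 36 windows in all because some genes have several starts. The element was searched as TGATGNAA on both strands, its reverse strand reading TTNCATCA, and no match overlapped one of the other motif searched. It stood in the windows of 9 members (Asns, Atf3, Chac1, Got1, Nupr1, Pycr1, Slc1a4, Slc7a11 and Vldlr), which is 9 of 36 windows or 25%, against 3.97% of all 32851 windows in the table. The other motif, the endoplasmic reticulum stress element ERSE, was in 0 of the 36 windows and in 0.119% of all windows. Many members were listed because ATF4 is known to control them. A share above that of all windows was thus built into the list and supports nothing. A match describes letters in the window and not a site in use. The windows of Asns and Vldlr are shown whole because both members changed over the groups, in the sense of the gene and with the match in capitals. The Asns window is chr6:7693160-7693459 on the minus strand. Its match begins 23 bases before the start, and the human gene is known for a nutrient-sensing element with this core. The Vldlr window is chr19:27216770-27217069 on the plus strand, and its match, on the opposite strand, begins 200 bases before the start.
Asns: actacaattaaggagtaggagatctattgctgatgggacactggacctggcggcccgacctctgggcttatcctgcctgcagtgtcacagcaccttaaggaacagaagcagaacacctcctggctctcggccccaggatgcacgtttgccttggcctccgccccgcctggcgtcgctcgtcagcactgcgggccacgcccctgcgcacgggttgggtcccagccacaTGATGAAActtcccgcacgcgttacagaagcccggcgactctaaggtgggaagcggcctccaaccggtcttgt
Vldlr: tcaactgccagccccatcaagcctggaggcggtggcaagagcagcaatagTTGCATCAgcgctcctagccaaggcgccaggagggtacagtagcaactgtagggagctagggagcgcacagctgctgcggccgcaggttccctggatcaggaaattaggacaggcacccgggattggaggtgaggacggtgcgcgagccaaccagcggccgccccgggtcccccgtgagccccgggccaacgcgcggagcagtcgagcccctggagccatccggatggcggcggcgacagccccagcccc

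For the other tested members with a match, the 28 bases around it are shown on the strand that reads TGATGNAA, so that the elements can be set side by side. They lie at chr1:191183426-191183453 (plus strand, Atf3), chr2:119351039-119351066 (minus, Chac1), chr19:43524690-43524717 (plus, Got1), chr11:20332700-20332727 (plus, Slc1a4) and chr7:126625563-126625590 (plus, Nupr1). The sites of Slc7a11 and Pycr1, which have no tested values, are not shown.
Atf3: gcggacttggTGATGCAAgtgcgagaag
Chac1: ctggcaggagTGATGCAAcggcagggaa
Got1: gaggcttgtaTGATGCAAccaatgcaat
Slc1a4: aggctggagaTGATGCAAcgcaggaggc
Nupr1: aagccctgtcTGATGCAAtctggccctt

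Facts of the arrays bear on every value below. The germ cell label was matched by its markers, with Dazl between 4112 and 7640 and Ddx4 between 831 and 1410 on all arrays, and all 14 germ cell markers passed the filter. Withdrawal replicate 3 stood apart in its controls, where the 3' beta-actin probe set stood at 2.77 times the 5' one, and the remaining 14 arrays had 1.10 to 1.75 times. Of 16 fibroblast markers, 15 passed the filter, and the summed signal of the 16 was 10110 to 13214 in maintained cultures, 9704 to 14303 after withdrawal and, on replacement, 6509 to 10829 at 2 h, 16631 to 19836 at 4 h and 16827 to 20313 at 8 h. The sum of 9 endothelial and blood cell markers, led by the mast cell proteases Mcpt4 and Cma1, was 925 to 1140 in maintained cultures, 1182 to 1431 after withdrawal, 1385 to 1964 at 2 h, 1828 to 2375 at 4 h and 1838 to 2932 at 8 h. Sertoli cell markers passed for 7 of 9 (not Amh and Cldn11), and their sum was 523 to 592 in maintained cultures, 632.5 to 695 after withdrawal, 487 to 599 at 2 h, 638 to 668 at 4 h and 718 to 808 at 8 h. Leydig and peritubular markers passed for 3 of 6 (Star, Cyp11a1 and Des, not Cyp17a1, Hsd3b1 or Myh11). Their sums were 221 to 338 in maintained cultures and 292 to 335 after withdrawal. On replacement these sums were 229 to 313 at 2 h, 358 to 450.4 at 4 h and 386 to 488 at 8 h. Endothelial and blood cell markers passed for 7 of 9, Pecam1 and Ptprc being the exceptions. In bulk RNA, fewer cells of a type and less RNA per cell cannot be told apart. Differences below are log2 differences of signal plus 16 from limma, fitted over all 5 groups. P-values carry the Benjamini-Hochberg adjustment for all 13083 genes, and those under 0.05 after it count as calls.

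The first comparison set cultures kept 18 h without GDNF and GFRalpha1 against maintained cultures. Handling, if it differed, cannot be told apart from the loss of the factors. After 18 h of withdrawal the serine enzyme Psat1 and the asparagine enzyme Asns fell, while the glycine transporter Slc6a9 and the eIF2 phosphatase subunit Ppp1r15a rose. These were 4 of 34 members called, 2 higher and 2 lower, where 8.04% of all genes were called, 4.21% higher and 3.83% lower. With arrays shifted to 1 median, 0 members were called higher and 3 lower (Asns, Psat1 and Cth), against 6.96% of all genes called. Unadjusted p-values under 0.05 were found for 12 members, against 23.8% of all genes. The groups did not overlap for 12 members, 5 higher and 7 lower, against 26.8% of all genes, 16.1% higher and 10.7% lower. The median difference was -0.11 over the members and 0.06 over all genes, and 22 of 34 members were negative. The summed signal of the 14 germ cell markers was 13166 to 16030 in withdrawal cultures, against 16698 to 18222 in maintained cultures, and 4 of them (Epcam, Itga6, Gfra1 and Cd9) were called lower and 1 (Zbtb16) higher. Taken singly, 7 of these markers were positive and 7 negative, with a median of -0.007. Dazl, the brightest of them, weighs most in the sum. The Sertoli cell and the endothelial and blood cell sums were higher on all withdrawal arrays than on the maintained ones. The part of these shifts in the members' values was not tested.

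Psat1, the aminotransferase of serine synthesis, had signals of 854, 786 and 716 in withdrawal cultures, against 1234, 1133 and 1278 in maintained cultures. All 3 withdrawal arrays lay below all 3 maintained arrays. The difference was -0.62 (95% interval -0.87 to -0.37, adjusted p = 0.00378 in limma). It was -0.56 without withdrawal replicate 3 (adjusted p = 0.0102). A dimmer probe set of Psat1 gave -0.41 and was not called (adjusted p = 0.166 over all probe sets).

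Asns, which makes asparagine from aspartate and glutamine, had signals of 548, 517 and 573 in withdrawal cultures, against 769, 793 and 809 in maintained cultures. The groups were well apart and each was narrow. The difference was -0.52 (95% interval -0.80 to -0.24, adjusted p = 0.0231 in limma), and -0.56 without withdrawal replicate 3 (adjusted p = 0.0312). The second Asns probe set gave -0.48 and missed the threshold (adjusted p = 0.0756 over all probe sets). The Asns call ended when any of maintained replicates 2 and 3 or withdrawal replicates 1 and 2 was left out.

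Slc6a9 encodes GLYT1, which takes up glycine. Its signals were 422, 483 and 562 in withdrawal cultures, against 348, 295 and 311 in maintained cultures, so the groups did not overlap. The difference was 0.59 (95% interval 0.31 to 0.87, adjusted p = 0.0118 in limma). A second probe set gave 0.95 without passing the test (adjusted p = 0.0619 over all probe sets). The call ended without maintained replicate 2 and when arrays were shifted to 1 median.

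Ppp1r15a, the inducible subunit that brings a phosphatase to eIF2, had signals of 485, 553 and 649 in withdrawal cultures, against 423, 409 and 351 in maintained cultures. The withdrawal arrays were all higher, replicate 3 the highest of them. The difference was 0.49 (95% interval 0.22 to 0.76, adjusted p = 0.0282 in limma). Without withdrawal replicate 3 it was 0.38 and was not called (adjusted p = 0.0881). The call also ended without maintained replicate 2 or 3 or withdrawal replicate 2, and when arrays were shifted to 1 median.

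**Figure D1:**
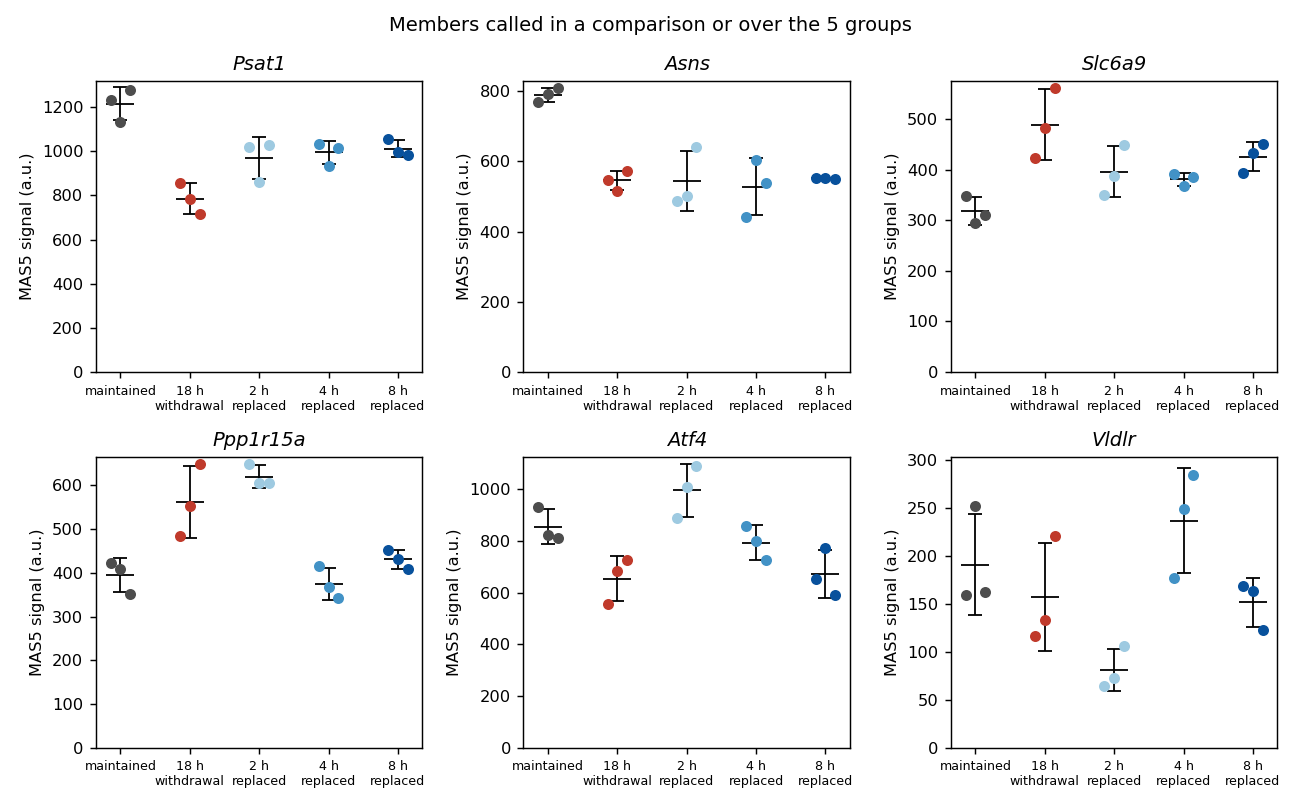
MAS5 signal in arbitrary units of the members called in a comparison or over the 5 groups, with 1 point an array, the group mean as a line and the SD as bars (n = 3 a group), over maintained cultures, 18 h of withdrawal and 2, 4 and 8 h of replacement. Psat1 and Asns lie lower on all 3 withdrawal arrays than on the maintained arrays, and Asns stays near 550 at 8 h.

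Atf4 itself was not called on withdrawal. Its signals were 555, 682 and 726 in withdrawal cultures, against 932, 822 and 811 in maintained cultures. The groups did not overlap, and the difference of -0.38 (95% interval -0.68 to -0.09) had an adjusted p of 0.0996 in limma. A second probe set of Atf4 gave -0.04 (adjusted p = 0.939 over all probe sets), with 498, 476 and 791 in withdrawal cultures against 554, 629 and 586 in maintained cultures. The probe sets thus differ, and the second is spread by withdrawal replicate 3.

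Probe sets of Ddit3 (CHOP), a factor of the later stress response, gave opposite readings. The brighter one, chosen by the rule, had 195, 173 and 286 in withdrawal cultures, against 257, 201 and 151 in maintained cultures, and its difference was 0.09 (adjusted p = 0.868 in limma). The dimmer one had 8.9, 22.3 and 10.8 in withdrawal cultures, against 46.8, 53.6 and 58.7 in maintained cultures. It was called lower, by -1.23 (adjusted p = 0.017 over all probe sets). Signals under 30.5 are drawn together by the constant of 16, so the size of this difference depends on that constant.

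The other transcription factors gave no call on the chosen probe sets. Cebpg, a C/EBP partner of ATF4, was separated, with 420, 412 and 450 in withdrawal cultures against 324, 292 and 376 in maintained cultures (difference 0.36, adjusted p = 0.106 in limma). With the mean of its probe sets Cebpg was called higher (0.48, adjusted p = 0.0398 in limma). Atf3, a repressor induced by many stresses, overlapped and gave -0.55 (adjusted p = 0.278). Atf5 (0.12), Cebpb (-0.17) and Nupr1 (0.26), a small stress-induced chromatin protein, had intervals that covered 0.

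Among the serine and one-carbon enzymes only Psat1 was called, though all 6 differences of the chosen probe sets were negative, from -0.62 to -0.10. Of all genes 57.2% were positive. Phgdh, the first enzyme of serine synthesis, gave -0.11 (95% interval -0.48 to 0.25). Its signals were 1431, 1358 and 2416 in withdrawal cultures, against 1732, 1822 and 1889 in maintained cultures, so withdrawal replicate 3 lay above every maintained array and the other withdrawal arrays below. The next brightest Phgdh probe set leaned higher, with 1572, 1467 and 1775 in withdrawal cultures against 1876, 1274 and 1440 in maintained cultures. All the dimmer Phgdh probe sets overlapped. Psph, the last enzyme of serine synthesis, had groups apart by a small step (-0.12, adjusted p = 0.639). Shmt2 (-0.15), Mthfd2 (-0.21) and Mthfd1l (-0.10), mitochondrial enzymes of folate metabolism, overlapped. With the mean of its probe sets Shmt2 was called lower (-0.43, adjusted p = 0.0398 in limma).

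Of the 5 other enzymes tested, 1 was called, Asns. Cth, which makes cysteine from cystathionine, had 115, 94.1 and 66.7 in withdrawal cultures against 136, 146 and 125 in maintained cultures, and its difference of -0.51 missed the threshold (adjusted p = 0.0945 in limma). Cth was called with arrays shifted to 1 median (adjusted p = 0.0489) and with quantile normalization (adjusted p = 0.0494). Aldh18a1, which starts proline synthesis, was separated upwards, with 339, 310 and 440 in withdrawal cultures against 273, 274 and 262 in maintained cultures (0.39, adjusted p = 0.0735). Got1, the cytosolic aspartate aminotransferase, gave -0.65 with overlapping groups (adjusted p = 0.141). Chac1, which degrades glutathione, had 82.7 to 94.7 in withdrawal cultures and 75.6 to 99.8 in maintained cultures. The enzymes of this group thus lay on both sides of 0.

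Of 9 transporters tested, Slc6a9 alone was called. Slc7a1, an importer of arginine and lysine, had 526, 529 and 598 in withdrawal cultures against 647, 910 and 681 in maintained cultures (-0.41, adjusted p = 0.143 in limma). Slc38a1, a glutamine importer, had 411, 300.2 and 456 in withdrawal cultures against 523, 495 and 548 in maintained cultures (-0.43, adjusted p = 0.096). Both were separated downwards without a call. Slc7a5 and Slc3a2, the light and heavy chains of the leucine exchanger, gave -0.10 and -0.06, and in each withdrawal replicate 3 was above all maintained arrays. Slc38a2, the glutamine and alanine importer SNAT2, gave 0.12. A second Slc38a2 probe set lay lower without overlap, with 402, 427 and 373 in withdrawal cultures against 463, 433 and 457 in maintained cultures. Its dimmest probe set overlapped. Slc1a4, a carrier of alanine, serine and cysteine, gave 0.48 with overlap, its relative Slc1a5 gave -0.24, and the arginine importer Slc7a3 had 39.3 to 62.8 in withdrawal cultures against 45.8 to 58.6 in maintained cultures.

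In translation control only Ppp1r15a was called. The PERK gene Eif2ak3 gave -0.26, the GCN2 gene Eif2ak4 -0.03, the constitutive phosphatase subunit Ppp1r15b 0.04 and Eif4ebp1, an inhibitor of cap-dependent translation, -0.12. Eif4ebp1 had 1609 on withdrawal replicate 3 against 859 and 974 on the other withdrawal arrays and 1019 to 1409 in maintained cultures. Of the secreted and surface members, the hormone Stc2 was separated upwards, with 112, 122 and 147 in withdrawal cultures against 101, 94.6 and 89.1 in maintained cultures (0.36, adjusted p = 0.208 in limma), and the lipoprotein receptor Vldlr overlapped (-0.28). The dimmer Stc2 probe sets overlapped. They had 103, 82 and 65.2 against 79.6, 86.6 and 85.8, and 52.2, 65.3 and 27.5 against 71.8, 59.6 and 40.9. The 7 tested members with the composite element ran from -0.65 for Got1 to 0.48 for Slc1a4, and among them Asns alone was called.

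At 2 h of replacement no member was called in limma, where 0.115% of all genes were called. Array weights gave 1 call, Atf4, against 0.512% of all genes. Unadjusted p-values under 0.05 were found for 7 members, against 8.06% of all genes. The groups did not overlap for 10 members, 5 higher and 5 lower, against 14.6% of all genes, 5.59% higher and 9% lower. Member and overall medians were -0.01 and -0.04.

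Atf4 had signals of 887, 1009 and 1091 at 2 h, against 555, 682 and 726 after withdrawal. All 3 arrays at 2 h were above all 3 withdrawal arrays, and the difference was 0.60 (95% interval 0.30 to 0.89, unadjusted p = 0.000489, adjusted p = 0.16 in limma). Its second probe set gave 0.24 (adjusted p = 0.806 over all probe sets). Vldlr moved the other way, with 64, 72.3 and 105 at 2 h against 117, 133 and 221 after withdrawal (-0.81, adjusted p = 0.4 in limma). Psat1 had 1018, 862 and 1028 at 2 h, which was above the withdrawal arrays by 0.30 without a call (adjusted p = 0.55). Asns had 487, 502 and 641 at 2 h and did not separate from withdrawal (-0.02, 95% interval -0.30 to 0.26). Slc6a9 had 350.3, 387 and 450 at 2 h and overlapped with withdrawal. The brighter Ddit3 probe set had 205, 181 and 185 at 2 h, within the withdrawal range. Slc1a4 (-0.70), Cebpg (-0.36), Aldh18a1 (-0.32) and Chac1 (-0.30) were separated downwards, and none was called. Of 15 fibroblast markers tested, 13 were negative at 2 h and 0 were called. Their median was -0.35, beside -0.04 over all genes, and their part in the members' values was not tested.

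At 4 h of replacement Ppp1r15a fell. It was 1 of 34 members called, against 2.64% of all genes, 1.74% called higher and 0.91% called lower. Unadjusted p-values under 0.05 were found for 8 members and 19.6% of all genes. Its signals were 415, 367 and 343 at 4 h, against 485, 553 and 649 after withdrawal. The groups did not overlap, and the difference was -0.56 (95% interval -0.83 to -0.29, adjusted p = 0.0327 in limma). Without withdrawal replicate 3 it was -0.45 and was not called (adjusted p = 0.0648). The call also ended without withdrawal replicate 2 or 4 h replicate 2 or 3. Arrays shifted to 1 median and no variance trend ended it as well. At 2 h the same transcript had signals of 650, 604 and 606, above every array at 4 h, and that step was not tested.

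The groups at 4 h and after withdrawal were apart for 7 members, 2 higher and 5 lower, against 21.4% of all genes, 8.76% higher and 12.6% lower. Psat1 had 1033, 935 and 1016 at 4 h (0.34 against withdrawal, adjusted p = 0.127 in limma). Slc6a9 had 391, 367 and 385 at 4 h, below the withdrawal arrays by a difference of -0.34 (adjusted p = 0.171). Cebpg (-0.40, adjusted p = 0.114), Aldh18a1 (-0.42, adjusted p = 0.0931) and Stc2 (-0.51, adjusted p = 0.111) were also separated downwards, and Nupr1, dim after withdrawal at 27.2 to 36.8, had 45.7, 55 and 71.4 at 4 h. The dimmer Stc2 probe sets overlapped with withdrawal at 4 h. Nupr1, 1 of the 2 counted higher, passed the filter only through the 4 h arrays, so its separation there supports nothing. Atf4 had 858, 798 and 724 at 4 h and overlapped with withdrawal by 1 array (0.28, adjusted p = 0.283). Asns had 441, 602 and 539 at 4 h (-0.06, adjusted p = 0.843). The dimmer Ddit3 probe set had 66.3, 54.8 and 66.9 at 4 h and was called higher than after withdrawal, by 1.41 (adjusted p = 0.0274 over all probe sets), whereas the brighter one had 187, 217 and 179 at 4 h (-0.13). The fibroblast marker sums at 4 h lay above all withdrawal arrays, and their part in these values was not tested.

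At 8 h of replacement no member was called against withdrawal in limma, where 2.39% of all genes were (1.3% higher and 1.09% lower), and none against maintained cultures, where 0.482% were (0.275% higher and 0.206% lower). Unadjusted p-values under 0.05 were found for 8 members in each comparison, against 15.3% and 17% of all genes. Against withdrawal the groups were apart for 8 members, 3 higher and 5 lower, compared with 21.5% of all genes, 10.4% higher and 11.1% lower. With array weights 3 members were called against withdrawal and 5 against maintained cultures, beside 9.11% and 9.78% of all genes. The 2 comparisons share the arrays at 8 h.

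Psat1 had 1055, 996 and 983 at 8 h, above all withdrawal arrays (0.36, adjusted p = 0.125 in limma) and below all maintained arrays (-0.26, adjusted p = 0.272). It thus lay between the groups. Asns had 552, 551 and 550 at 8 h, within the withdrawal range, and its difference from withdrawal was 0.01 (95% interval -0.265 to 0.295). Against maintained cultures Asns stood at -0.51 (95% interval -0.79 to -0.23, adjusted p = 0.0841), and it was called without withdrawal replicate 3 (adjusted p = 0.0485). That array enters the comparison with maintained cultures through the shared estimate of spread only, so the difference stayed at -0.51.

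Slc7a1 was the member with the smallest p against maintained cultures. Its signals were 435, 389 and 481 at 8 h, against 647, 910 and 681 in maintained cultures. The groups did not overlap, and the difference of -0.75 (95% interval -1.10 to -0.39) missed the threshold narrowly (adjusted p = 0.0561 in limma). It was called with arrays shifted to 1 median, and without withdrawal replicate 3 (adjusted p = 0.0315). Its other probe sets gave -0.31 and 0.15, without a call. Atf5, a factor related to ATF4, went the other way, with 168, 195 and 210 at 8 h against 126, 91.7 and 110 in maintained cultures (0.73, adjusted p = 0.0932), and was called without withdrawal replicate 3 (adjusted p = 0.0304). For Slc7a1 and Atf5 too, leaving out that array changed the estimate of spread and not the difference.

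Slc6a9 had 394, 432 and 451 at 8 h, above the maintained arrays by 0.40 (adjusted p = 0.152 in limma). Ppp1r15a had 451, 431 and 409 at 8 h, below all withdrawal arrays (-0.37, adjusted p = 0.161) and overlapping with maintained cultures (0.12). Atf3 had 15.2, 68.7 and 17.2 at 8 h, against 89.8, 60.1 and 79.7 in maintained cultures, a difference of -1.04 with overlap (adjusted p = 0.104). The wide spread at 8 h came from replicate 2, and 2 of the 3 arrays were under 30.5, so the size of the difference depends on the constant of 16. Brighter Ddit3 signals at 8 h were 147, 224 and 370, a spread wider than in any other group.

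Against maintained cultures the groups at 8 h were apart for 14 members, 3 higher and 11 lower, while 26.6% of all genes were apart, 15.8% higher and 10.8% lower. The member median was -0.13 with 25 of 34 members negative, and over all genes it was 0.06 with 58.6% positive. With arrays shifted to 1 median, the overall median of this comparison became -0.08 and the member median -0.28. The 11 that lay lower were Asns, Psat1, Atf4, Slc7a1, Shmt2, Mthfd1l, Cth, Slc7a5, Slc38a1, Eif4ebp1 and Eif2ak3. The germ cell marker sum was 15033 to 16469 at 8 h, against 16698 to 18222 in maintained cultures, so it too was lower without overlap. Dazl weighs most in this sum. Taken singly, 6 of the germ cell markers were positive and 8 negative, and 0 were called, beside 0.482% of all genes. The fibroblast, Sertoli, Leydig and peritubular, and endothelial and blood cell sums at 8 h were all above every maintained array. The part of these shifts in the members' values was not tested.

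**Figure D2:**
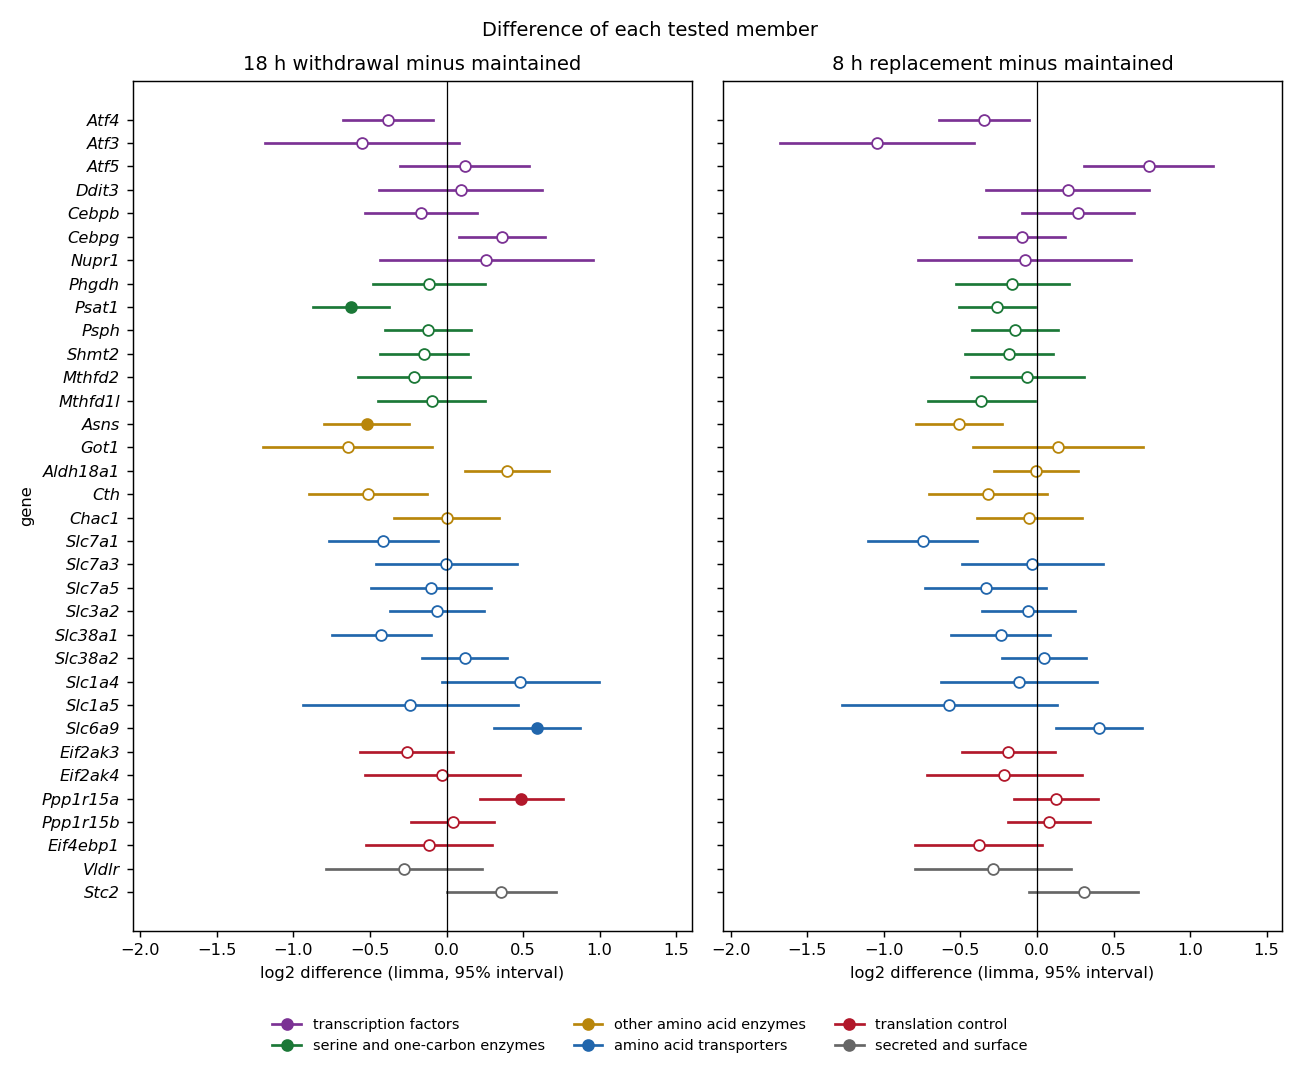
Log2 differences of the 34 tested members, grouped by role, with 95% intervals from limma, for withdrawal against maintained cultures (left) and for 8 h of replacement against maintained cultures (right). The filled points mark calls, which are Psat1 and Asns (lower) and Slc6a9 and Ppp1r15a (higher) on withdrawal.

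Between 2 and 8 h of replacement 1 member was called, Atf4, and it fell. Of all genes 1.85% were called, 1.48% higher and 0.375% lower. Unadjusted p-values under 0.05 were found for 5 members and 14.5% of all genes. Its signals were 653, 772 and 590 at 8 h, against 887, 1009 and 1091 at 2 h. The groups did not overlap, and the difference was -0.56 (95% interval -0.85 to -0.27, adjusted p = 0.0479 in limma). This call lay at the threshold. It was kept under 4 of 11 alternative settings and on leaving out 3 of 15 arrays in turn, and the second probe set gave -0.50 without a call (adjusted p = 0.28 over all probe sets). Atf4 was thus highest at 2 h on the chosen probe set, with a mean of 671.6 ± 92.3 at 8 h against 995.5 ± 102.5 at 2 h (SD, n = 3 each). The named enzymes did not share that shape, since Asns differed by 0.03 between 8 and 2 h and Psat1 by 0.06.

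The groups at 8 and 2 h were apart for 11 members, 5 higher and 6 lower, against 25.6% of all genes, 14.7% higher and 10.9% lower. Ppp1r15a had 451, 431 and 409 at 8 h against 650, 604 and 606 at 2 h, just short of a call (-0.51, adjusted p = 0.0534 in limma). Vldlr had 169, 163 and 123 at 8 h against 64, 72.3 and 105 at 2 h (0.81, adjusted p = 0.112). Atf5 (0.65, adjusted p = 0.12) and Cebpb (0.59, adjusted p = 0.101), a C/EBP factor of stress and inflammation, were separated upwards. Without withdrawal replicate 3, Atf5, Ppp1r15a and Vldlr were called besides Atf4, against 3.29% of all genes. That array enters this comparison through the shared estimate of spread only. Fibroblast marker sums at 8 h were above those of all 2 h arrays, and 9 of their genes were called higher, while their part in the members' values was not tested.

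Over the 5 groups together, a moderated F test in limma called 5 members, Ppp1r15a (adjusted p = 0.00649), Vldlr (0.014), Psat1 (0.0306), Asns (0.0371) and Atf4 (0.0418), where 6.68% of all genes were called. Unadjusted F test p-values under 0.05 were found for 16 members and 25.2% of all genes. Of 25 alternatives, the F test call was kept in 25 for Ppp1r15a, 23 for Vldlr, 15 for Psat1, 12 for Asns and 9 for Atf4. The Vldlr call ended without 2 h replicate 1 or 2. On leaving out 1 of the 15 arrays, Psat1 kept its call 8 times, Asns 4 times and Atf4 3 times. Vldlr, a receptor for lipoproteins and reelin that ATF4 is known to induce under stress, had the widest range of group means among the members, 1.39 on the log2 scale, lowest at 2 h and highest at 4 h. At 4 h its signals were 177, 248 and 284, and in maintained cultures they were 159, 252 and 162. The fibroblast marker sums also reached their lowest at 2 h and were higher at 4 h. They stayed high at 8 h, where Vldlr had 169, 163 and 123. Their part in the Vldlr values was not tested. The other 3 Vldlr probe sets that passed were dim and were not called (adjusted p = 0.237 to 0.559 over all probe sets). Atf3 followed with a range of 1.04. The median range of the members was 0.48, against 0.45 for all genes tested, and a range over 1 was found in 5.88% of members and 4.77% of all genes.

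Group means were highest in maintained cultures for 12 of 34 members, a position held by 18.8% of all genes. They were lowest at 8 h for 11 members, against 16.4% of all genes. Maintained cultures were the top group for Asns, Psat1, Cth, Slc7a1, Slc7a5, Slc38a1, Phgdh, Shmt2, Mthfd1l, Atf3, Eif2ak3 and Eif2ak4. Withdrawal was the top group for Slc6a9, Cebpg, Aldh18a1, Chac1, Slc1a4 and Stc2. For Chac1 the withdrawal and maintained means were 89.3 and 89.7 in signal, so their order on the log2 scale has no weight.

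**Figure D3:**
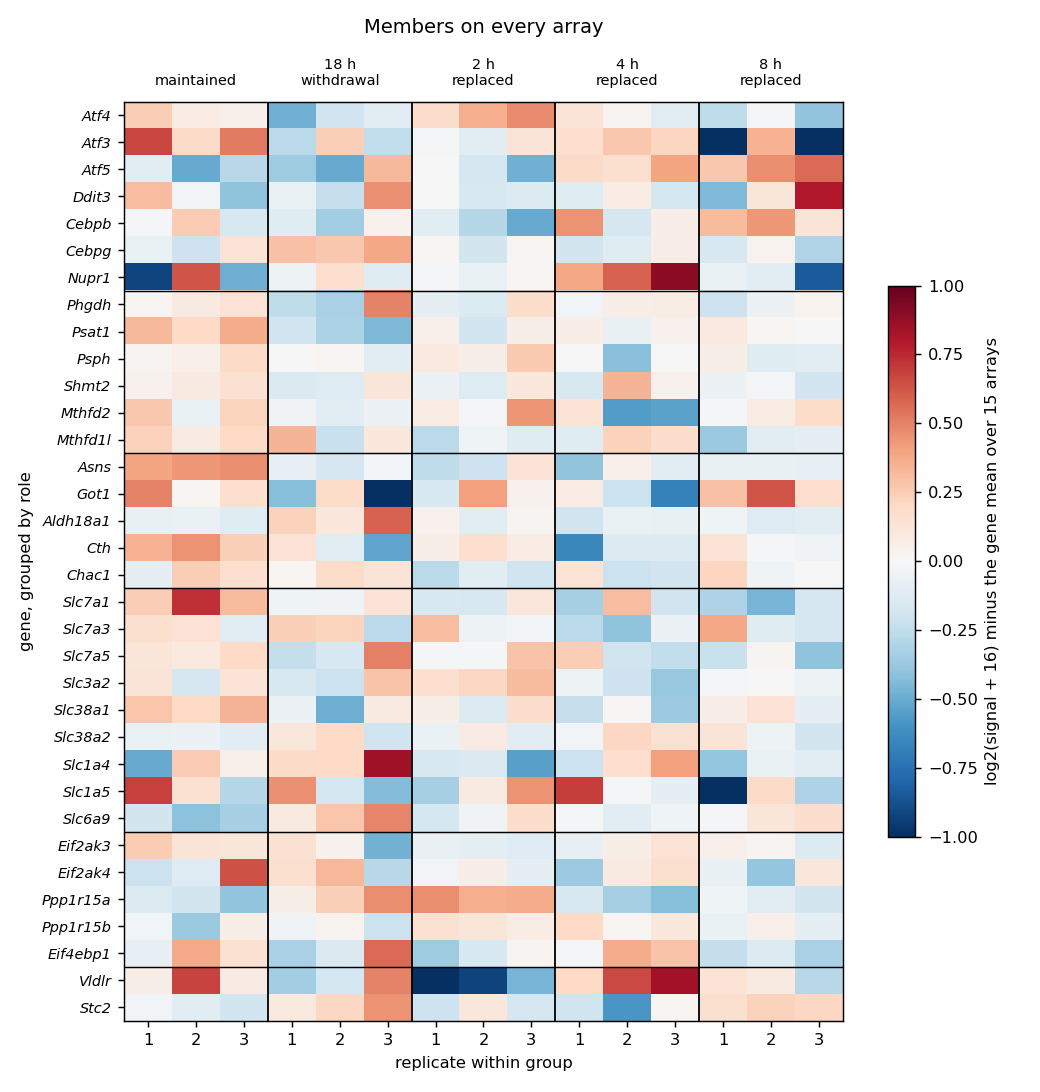
Log2 signal (plus 16) of the 34 tested members on each of the 15 arrays, as the difference from the member's mean over all arrays, members grouped by role and arrays by group. Colours run from -1 to 1, and 5 values below -1 are shown at the end of the scale. Psat1 and Asns are highest (red) on the maintained arrays, and Ppp1r15a on the withdrawal and 2 h arrays.

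Other genes of the pathway were counted from lists that, like the members, were chosen with earlier results of these data known. Of all genes, 8.04% were called on withdrawal, and 0.115%, 2.64% and 2.39% at 2, 4 and 8 h against withdrawal. At 8 h 0.482% were called against maintained cultures and 1.85% against 2 h. Aminoacyl-tRNA synthetases, which load amino acids onto tRNA and many of which ATF4 controls, gave 0 calls among 19 tested in each of the 6 comparisons in limma. Unadjusted p-values under 0.05 were found for 2 of them on withdrawal (23.8% of all genes), and for 0, 6 and 3 at 2, 4 and 8 h against withdrawal (8.06%, 19.6% and 15.3% of all genes). Their medians stood at 0.07 on withdrawal and -0.24 at 4 h against withdrawal, beside 0.06 and -0.05 over all genes. Among 12 serine, glycine and folate genes, 2 rose on withdrawal and none fell, against 4.21% higher and 3.83% lower of all genes. These were Mtr, methionine synthase, and Sfxn1, a mitochondrial serine carrier. Mtr had 1259, 1305 and 1539 in withdrawal cultures against 1081, 799 and 934 in maintained cultures (0.54, adjusted p = 0.0279 in limma). Sfxn1 had 174, 190.5 and 299.8 in withdrawal cultures against 116.5 to 137 in maintained cultures (0.69, adjusted p = 0.0271). Mtr was lower than withdrawal at 4 h (-0.57, adjusted p = 0.0441) and at 8 h (-0.58, adjusted p = 0.0405), and these calls were kept in 9 and 11 of 26 alternatives. Without withdrawal replicate 3 none of these Mtr and Sfxn1 calls held.

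Of 17 further amino acid enzymes, 2 rose on withdrawal and 1 fell, where 8.04% of all genes were called. The subunits of the branched-chain ketoacid dehydrogenase moved apart. Bckdha had 558, 481 and 760 in withdrawal cultures against 342, 326 and 239 in maintained cultures (0.94, adjusted p = 0.00346 in limma). Bckdhb had 327, 328 and 292 in withdrawal cultures against 441, 548 and 518 in maintained cultures (-0.64, adjusted p = 0.00825). Got2, the mitochondrial aspartate aminotransferase, rose by 0.63 (adjusted p = 0.00522). The Got2 difference was 0.36 and not called with the mean of its probe sets. Of 22 other amino acid transporters, Slc7a4 rose by 0.53 (adjusted p = 0.0236, kept in 19 of 26 alternatives and ended without any maintained array or withdrawal replicate 1 or 2), and Slc25a13, the mitochondrial aspartate/glutamate carrier, fell by 1.07 on the log2 scale (adjusted p = 0.047). The Slc25a13 call rested on withdrawal replicate 3 at 14.4 and was kept in 7 of 26 alternatives.

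Among 17 other genes reported as ATF4-dependent, 3 rose and 2 fell on withdrawal, against 4.21% higher and 3.83% lower of all genes. Ddit4 (REDD1), an inhibitor of mTORC1 that other pathways also induce, had 2318, 2571 and 3856 in withdrawal cultures against 1159, 1261 and 1160 in maintained cultures. The difference was 1.24 (adjusted p = 0.00206 in limma). At 4 h Ddit4 had 1546, 1489 and 1546 and was lower than withdrawal by -0.89 (adjusted p = 0.0384), a call that ended without withdrawal replicate 3. At 8 h Ddit4 had 1135, 607 and 1139 and was lower than withdrawal by -1.61 (adjusted p = 0.00104), and lower than at 2 h by -1.01 (adjusted p = 0.0217). Trib3, a pseudokinase that restrains ATF4, had 299, 348 and 346 in withdrawal cultures against 147, 161 and 226 in maintained cultures (0.86, adjusted p = 0.0041). It was lower than withdrawal at 4 h (-0.67, adjusted p = 0.0385) and at 8 h (-0.81, adjusted p = 0.0151). The Ddit4 and Trib3 calls on withdrawal were kept in all 26 alternatives, whereas the Trib3 call at 4 h was kept in 14, ending without any one of the withdrawal or 4 h arrays, and that at 8 h in 23, ending without withdrawal replicate 2 or 8 h replicate 1 or 3. The Ddit4 call at 4 h was kept in 15, that at 8 h against withdrawal in 26 and that at 8 h against 2 h in 23.

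Rcan1, an inhibitor of calcineurin, rose on withdrawal (0.67, adjusted p = 0.0123), while Gadd45a (-0.65, adjusted p = 0.0379) and the oxidase gene Ero1a (-0.45, adjusted p = 0.0398) fell. Without withdrawal replicate 3, Gadd45a and Ero1a were not called, and Ddit4, Trib3 and Rcan1 were. Of 26 alternatives, 23 kept the Rcan1 call, 17 that of Gadd45a and 12 that of Ero1a. Rcan1 was not called without maintained replicate 2 or with the mean of its probe sets (0.35). Genes of the ATF4 lists therefore went both ways on withdrawal, with Trib3 and Ddit4 higher and Psat1 and Asns lower.

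In the list of eIF2, eIF2B and eIF2 kinases, 1 of 12 was called on withdrawal, where 8.04% of all genes were called. It was Eif2s2, the beta subunit of eIF2 (-0.57, adjusted p = 0.0255 in limma). That call was lost without withdrawal replicate 3 and without maintained replicate 2 or 3. Impact, which restrains GCN2, had 226, 302 and 366 at 4 h against 163, 169 and 152 after withdrawal (0.80, adjusted p = 0.0344), and 266, 392 and 278 at 8 h (0.87, adjusted p = 0.0214). The Impact calls were kept in 16 of 26 alternatives at 4 h and 21 at 8 h. The mean of its probe sets gave 0.48 and 0.50 without a call, the call at 4 h ended without any one of the withdrawal arrays, and that at 8 h without withdrawal replicate 1 or 8 h replicate 2 or 3. Among 10 C/EBP, ATF and NRF factors, Nfe2l2 (NRF2) fell on withdrawal (-0.65, adjusted p = 0.0448), a call lost without withdrawal replicate 3 and kept in 9 of 26 alternatives. Cebpd had 262, 381 and 369 at 4 h against 130, 112 and 205 after withdrawal (1.12, adjusted p = 0.0161), and at 8 h it was higher than at 2 h (1.14, adjusted p = 0.0124). The Cebpd calls were kept in 20 and 22 of 26 alternatives. The call at 4 h ended without withdrawal replicate 1 or 2 or 4 h replicate 2 or 3, and averaging its probe sets gave 0.68 without a call. The call at 8 h against 2 h ended without 2 h replicate 2 or 3 or 8 h replicate 1 or 2. Cebpd is also expressed in fibroblasts, whose summed markers were higher at 4 h than after withdrawal, and their part in its value was not tested.

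Of 19 genes of the unfolded protein response of the endoplasmic reticulum, 3 fell and 1 rose on withdrawal. Of all genes 3.83% were called lower and 4.21% higher. Xbp1, the factor that IRE1 activates by splicing, had 751, 703 and 844 in withdrawal cultures against 1284, 1501 and 1508 in maintained cultures (-0.89, adjusted p = 0.00107 in limma). At 8 h Xbp1 had 1149, 1200 and 1281 and was higher than withdrawal by 0.65 (adjusted p = 0.0223). Manf, a secreted stress protein (-0.73, adjusted p = 0.0111), and Edem1, which hands misfolded glycoproteins to degradation (-0.68, adjusted p = 0.0147), also fell. Edem1 was higher than withdrawal at 4 h (0.75, adjusted p = 0.0229). With the mean of its probe sets Edem1 was called in neither, at -0.34 and 0.35. Its call on withdrawal also ended without maintained replicate 2, as did that of Manf, and its call at 4 h without withdrawal replicate 1 or 4 h replicate 2 or 3. The sensor Atf6 rose on withdrawal (0.68, adjusted p = 0.0287), a call kept in 18 of 26 alternatives and lost with arrays shifted to 1 median and without maintained replicate 2 or 3 or withdrawal replicate 1 or 2. The Xbp1 call on withdrawal was kept in all 26 alternatives and that at 8 h in 19, ending without withdrawal replicate 1 or 2 or any of the 8 h arrays. The median of the 19 genes on withdrawal was near 0 (-0.001).

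**Figure D4:**
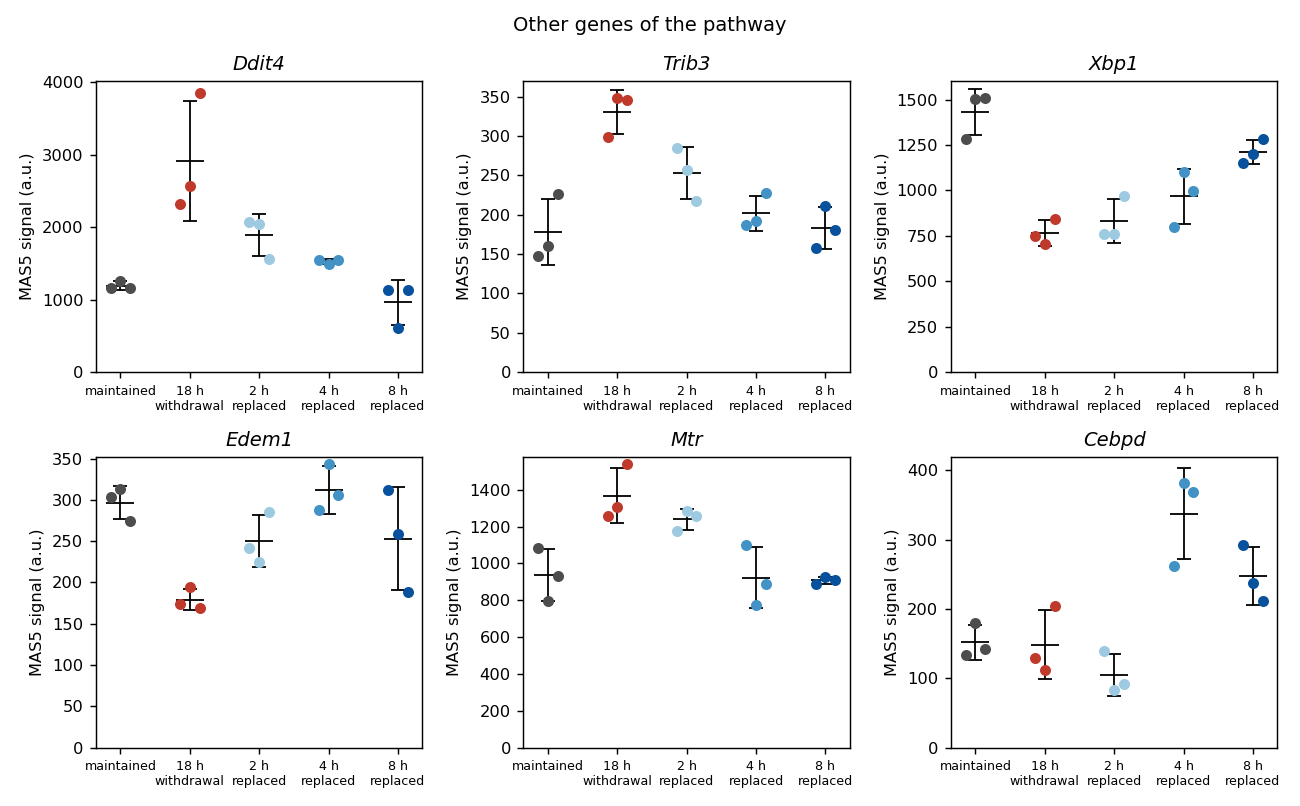
MAS5 signal in arbitrary units of 6 genes from the other lists, with 1 point an array, the group mean as a line and the SD as bars (n = 3 a group), over maintained cultures, 18 h of withdrawal and 2, 4 and 8 h of replacement. Ddit4 and Trib3 are highest after withdrawal, where Xbp1 and Edem1 are lowest.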

How the data were processed

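Per the submitters' processing notes, the authors computed signal with MAS5, which summarises all probes of a probe set as a single number. What the authors deposited is a linear intensity, for 45101 probe sets on 15 arrays. For MAS5 version, scaling target and build: not given in the sources used here. Scanner files were not used here. The trimmed mean was 150 on every array.

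The 36 members and the other lists were chosen with earlier results of these data known. Probe sets were named from the platform annotation, of which 34945 had 1 symbol, 932 several and 9160 none. After 64 control probe sets and the dimmest 40% were removed, 27022 remained. For each of 13083 genes the probe set of highest mean log2 (signal plus 16) was taken, from those with 1 symbol. The constant of 16 draws dim values together. Group means were fitted to all 5 groups with limma 3.58.1 in R 4.3.3 (lmFit, eBayes with a variance trend, 10 residual degrees of freedom), with two-sided tests, and the code was tested on simulated data. The median standard error was 0.19, and the number of arrays limits the precision. An exact test of 3 arrays against 3 cannot give a p under 0.1. Other probe sets of a member were tested in a fit of all 27022.

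Members called in any comparison or by the F test, and Atf4, Ddit3 and Asns, are given array by array. Other members are given by ranges, with single values where a sentence compares them. Up to 4 called genes of each other list per comparison are named, by smallest adjusted p. Ero1a was named beyond that rule after its values were seen. Promoters were shown for at most 4 called members with the composite element, by smallest F test p. The alternatives changed the constant, the filter, the normalization, the variance trend, array weights, the probe set, the replicate block, the groups fitted and each array left out.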

Additional observations from a re-analysis of the deposited data

How the results depend on the processing

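Leaving out 1 array in turn gave 1 to 4 member calls for withdrawal against maintained cultures, 0 to 0 at 2 h, 0 to 1 at 4 h and 0 to 1 at 8 h against withdrawal, 0 to 3 at 8 h against maintained cultures, 0 to 4 at 8 h against 2 h and 2 to 7 in the F test. Without withdrawal replicate 3 there were 3 at 8 h against maintained cultures (Atf5, Asns and Slc7a1) and 1 at 8 h against withdrawal (Atf5). Of all genes 2.11% and 2.7% were called there. Against maintained cultures that array enters through the shared estimate of spread only. In the same order of comparisons, array weights gave 9, 1, 4, 3, 5, 5 and 15 calls. The shares of all genes called were then 17.6%, 0.512%, 12.3%, 9.11%, 9.78%, 6.91% and 28.3%. With only the groups compared in the fit there were 0 on withdrawal, 0 at 4 h, 2 at 8 h against maintained cultures and 5 at 8 h against 2 h. In that order 2.39%, 0.0994%, 1.38% and 3.81% of all genes were called. The mean of a gene's probe sets gave 7 on withdrawal, 2 at 4 h and 2 at 8 h against 2 h. Beside these, 7.49%, 2.38% and 1.87% of all genes were called. Arrays shifted to 1 median gave 3 on withdrawal (0 higher, and Asns, Psat1 and Cth lower) and 0 at 4 h. They gave 1 at 8 h against maintained cultures and 0 at 8 h against 2 h. In that order 6.96%, 2.84%, 0.634% and 1.04% of all genes were called. This scaling moved the median of all genes at 8 h against 2 h to -0.09, where it had been 0.04. With no variance trend there were 0 at 4 h, 0 at 8 h against 2 h and 2 in the F test. The shares of all genes were 1.59%, 1.5% and 5.44%. For 8 h against 2 h, a constant of 1, no filter on dim probe sets and quantile normalization each gave 0. Leaving out the dimmest 50% gave 2. In these settings 1.7%, 0.89%, 1.85% and 2.09% of all genes were called. Same-numbered arrays had correlations of deviations from -0.15 to 0.363 (median -0.016), with 7 of 30 pairs over 0.1. Arrays of different number had -0.327 to 0.232 (median 0.01), with 10 of 60 pairs over 0.1. These values and the labels do not settle whether replicate numbers pair the arrays. The replicate block gave 0 calls at 8 h against 2 h and 4 in the F test, and left the counts of the other comparisons as they were, with 4 on withdrawal. Ddit3 reversed with the mean of its probe sets, to -0.57 on withdrawal and 0.64 at 4 h, where its probe sets disagree. Each called member difference kept its sign under the alternatives run, among them -0.72 to -0.52 for Psat1 and -0.62 to -0.48 for Asns on withdrawal. Dim members limit the depth of the measurement, since Slc7a11 could not be tested and Nupr1 and Atf3 fell under the filter's signal on some arrays. The causes of the changes were not tested.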
